A study of Mus musculus with 8 samples.

Results

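The lysosomal hydrolases and cathepsins described here are 37 genes taken from a named list: the cathepsins, the glycosidases and other acid hydrolases with their activators, the main lysosomal membrane proteins, subunits of the vacuolar proton pump and the transcription factor Tfeb. Of these, 36 were measured, among 17097 genes of the array, and Neu1 was not analysed here. The list holds 4 genes known to be abundant in macrophages, Ctss, Ctsk, Laptm5 and Atp6v0d2, and 32 other measured genes, some of which, such as Ctsc and Ctse, are also known from immune cells. The tissue was islets of Langerhans of mice whose strain is labelled FVB/N-Tg(Ins2-IAPP)RFHSoel/J, in which the Ins2 promoter drives human islet amyloid polypeptide (hIAPP), an amyloid-forming hormone, in beta cells. The wild-type mice carry the same strain label. Total RNA from 4 groups was hybridised to 8 arrays, 2 per group, all from mice aged 20 weeks: untreated wild type, wild type given 4-phenylbutyrate (PBA), untreated hIAPP and hIAPP given PBA. PBA, a chemical chaperone, was given at 1 g/kg/day in water for 12 weeks from the age of 8 weeks, and the untreated mice of both genotypes had none. Whether the arrays of a group stand for separate animals or for pools is not stated in the labels. The p-values therefore reflect only how these samples vary, which may be technical.

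The lysosome breaks down proteins, lipids and sugars that reach it from outside the cell or by autophagy. The proton pump (V-ATPase) acidifies its lumen, cathepsins cut proteins there, glycosidases, sulfatases and lipases take apart the rest, and Tfeb switches on many of these genes together when the lysosome is loaded. Beta cells use lysosomes to degrade old insulin granules, whereas macrophages carry large amounts of lysosomal enzymes and use some of them, such as cathepsin S, in antigen presentation. In islets that form amyloid, aggregates lie outside the beta cells, where macrophages meet them.

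All levels are deposited log2 values, in which a difference of 1 is a doubling of signal. As a guide to background, control probe sets that match no mouse gene had a 95th percentile of 4.68. Ctso lay below this level on all 8 arrays, so its values bear little on its expression, and Atp6v0d2 reached it on 2 arrays, Ctse on 5 and Tfeb on 6. Of the arrays, PBA-treated wild type 1 stood apart by its hybridisation controls, with a median of 6.30 against 9.30 to 9.70 on the other 7. PBA-treated hIAPP 1 stood apart by its 12 markers of acinar cells, the enzyme-producing cells around the islets, with a median of 9.25 against 10.90 to 12.70 on the other 7. The median over all genes was 5.90 on both untreated hIAPP arrays and 5.70 on the other 6, a shift of 0.20 that touches every difference from that group. The labelled tissue was checked on 13 beta-cell marker genes, whose array medians ran from 11.10 to 11.80, far above background on all 8 arrays.

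In untreated mice, 15 of the 36 genes rose in hIAPP islets and 0 fell (limma, Benjamini-Hochberg adjusted p under 0.05), where 7.77% of all genes rose, 3.19% fell and 11.0% changed in either direction. The rises ran from 0.55 to 2.20, and 9 of the 15 were cathepsins. The groups did not overlap for 19 genes that were higher in hIAPP, against 20.8% of all genes, and for 4 that were lower, against 25.2%. The median difference was 0.28 over the 36 genes and -0.05 over all genes. All 4 macrophage-rich genes rose, with a median of 1.92 (1.73 with Atp6v0d2, which is below background in wild type, at its bound), and 11 of the 32 others rose, with a median of 0.15, which became -0.05 when all arrays were set to the same median. In the same comparison 20 of 24 macrophage markers rose, with a median of 1.75, and their part in the rise of lysosomal genes was not tested. In bulk islet RNA, more or fewer cells of a type and more or less RNA per cell cannot be told apart.

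Cysteine cathepsins, the largest protease family of the lysosome, gave 6 of the 15 rises. Ctsh, an aminopeptidase, measured 6.4 and 6.2 in untreated wild type, 8.6 and 8.4 in untreated hIAPP, 6.9 and 7.0 in PBA-treated hIAPP and 6.0 and 5.4 in PBA-treated wild type. Both untreated hIAPP arrays were the highest of the 8, and the transgene difference was 2.20 (SE 0.20, adjusted p = 9.4e-04). Ctsk, the collagen-cutting cathepsin best known from osteoclasts, measured 5.8 and 5.8 in untreated wild type, 5.7 and 5.9 in PBA-treated wild type, 8.2 and 7.6 in untreated hIAPP and 6.6 and 6.7 in PBA-treated hIAPP. Its difference was 2.10 (SE 0.19, adjusted p = 9.5e-04), and no hIAPP array overlapped a wild-type one. Ctsc, which activates granule serine proteases in immune cells, stood at 8.1 and 7.8 in untreated wild type and at 9.6 and 9.5 in untreated hIAPP, a difference of 1.60 (SE 0.13, adjusted p = 7.3e-04). Ctss, the cathepsin that processes the invariant chain in antigen-presenting cells, measured 9.9 on both untreated wild-type arrays and 11.3 and 11.0 in untreated hIAPP. That difference was 1.25 (SE 0.12, adjusted p = 0.0012). Ctsb and Ctsz, a broad endopeptidase and a carboxypeptidase, rose less, each by 0.85 (SE 0.13 and 0.16, adjusted p = 0.0072 and 0.0153). The 4 probe sets of Ctsb all had a positive difference, from 0.75 to 1.75, so the size for this gene depends on the probe set.

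The remaining cysteine cathepsins did not pass the test. Ctsl, a broad endopeptidase that beta cells also use, stayed between 11.1 and 11.3 on all 8 arrays, with a transgene difference of 0.05 (95% interval -0.20 to 0.30). Ctsf lay between 8.6 and 9.0, with a difference of -0.10. The interval for Ctsl ends below the 0.85 measured for Ctsb. Within this family the values thus ran from near 0 to a 4.59-fold rise of signal, that of Ctsh.

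The aspartic and serine cathepsins all rose. Ctsd, the main aspartic protease of the lysosome, measured 10.1 on both untreated wild-type arrays, 10.0 and 10.1 in PBA-treated wild type, 11.5 and 11.1 in untreated hIAPP and 10.8 and 10.7 in PBA-treated hIAPP. The transgene difference was 1.20 (SE 0.14, adjusted p = 0.0026), and all 4 hIAPP arrays lay above all 4 wild-type arrays. Ctse, an aspartic protease of endosomes in immune and epithelial cells, measured 5.2 and 4.1 in untreated wild type and 6.9 and 6.5 in untreated hIAPP. Its difference of 2.05 had the largest error of the 36 genes (SE 0.36, adjusted p = 0.0119). Of its untreated wild-type arrays 1 was below background, and with that array set to 4.68 the rise was at least 3.39-fold. Ctsa, a serine carboxypeptidase that also protects other hydrolases, rose by 0.55, from 9.4 on both wild-type arrays to 10.0 and 9.9 (SE 0.10, adjusted p = 0.0117).

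**Figure D1:**
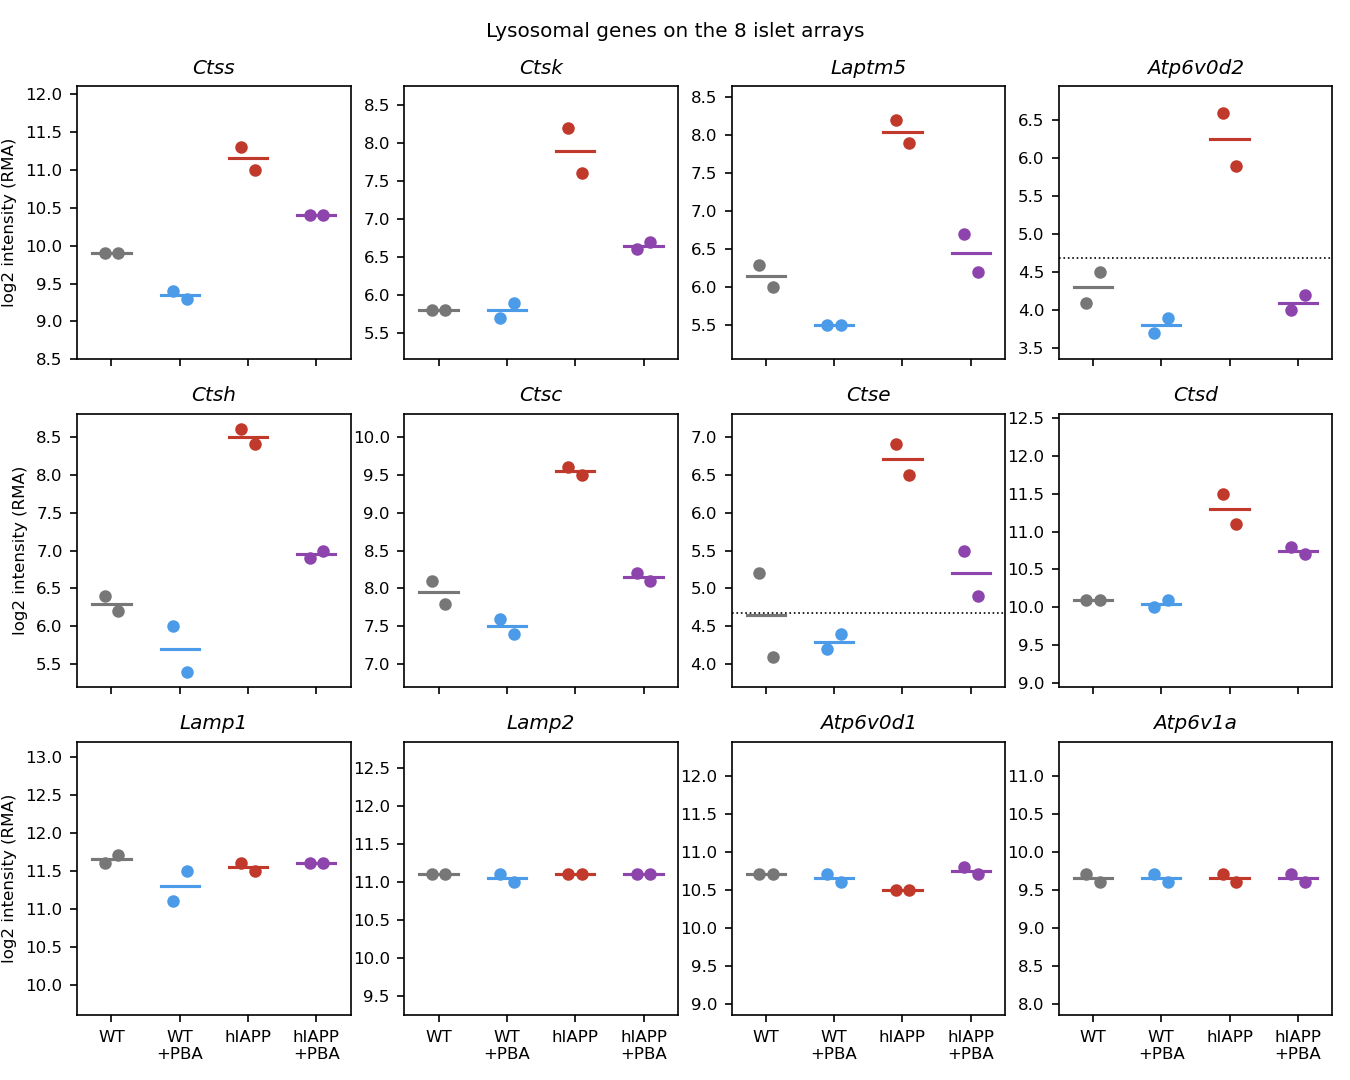
Deposited log2 level (vertical axis) of selected genes on each of the 8 arrays, grouped by genotype and treatment (horizontal axis). Points are arrays, short lines group means, and the dotted line is the background guide of 4.68; each panel spans the same number of log2 units. Ctsh, Ctsk and Atp6v0d2 are highest on both untreated hIAPP arrays, while Lamp2 stays between 11.0 and 11.1.

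Promoter sequences are shown to set letters known to be read by a macrophage factor and by Tfeb beside genes that rose and a gene that did not pass. RefSeq start sites on GRCm38.p6 gave a 300-base window, 250 bases before to 50 after the start, for 28 of the 36 genes. Ctsb, Ctsh, Ctse, Galns, Asah1, Npc1, Atp6v0d2 and Atp6v1h were not matched. The 250 bases before the start are shown for the macrophage-rich pair on chromosome 3, Ctss and Ctsk, and for Ctsd, which rose, and Lamp1, which did not pass. Capitals mark GAGGAA or its reverse complement TTCCTC in Ctss and Ctsk, the PU box read by the macrophage factor PU.1, and CACGTG in Ctsd and Lamp1, the E-box core read by Tfeb and related factors.
Ctss (chr3:95526536-95526785, + strand): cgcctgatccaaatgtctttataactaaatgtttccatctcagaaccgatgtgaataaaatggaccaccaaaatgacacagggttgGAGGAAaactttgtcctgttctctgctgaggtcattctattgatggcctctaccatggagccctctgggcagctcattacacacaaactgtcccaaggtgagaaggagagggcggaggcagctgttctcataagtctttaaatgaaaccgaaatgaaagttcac
Ctsk (chr3:95498960-95499209, + strand): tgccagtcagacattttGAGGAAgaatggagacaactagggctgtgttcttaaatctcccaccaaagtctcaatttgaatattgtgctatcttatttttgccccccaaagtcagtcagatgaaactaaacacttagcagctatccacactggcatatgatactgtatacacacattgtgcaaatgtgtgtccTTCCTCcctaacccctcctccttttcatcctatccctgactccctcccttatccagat
Ctsd (chr7:142387828-142388077, - strand): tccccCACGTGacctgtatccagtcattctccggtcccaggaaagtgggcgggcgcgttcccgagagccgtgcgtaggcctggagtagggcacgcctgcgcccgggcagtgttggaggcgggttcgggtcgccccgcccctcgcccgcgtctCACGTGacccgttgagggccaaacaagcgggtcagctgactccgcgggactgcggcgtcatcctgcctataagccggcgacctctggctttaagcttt
Lamp1 (chr8:13158911-13159160, + strand): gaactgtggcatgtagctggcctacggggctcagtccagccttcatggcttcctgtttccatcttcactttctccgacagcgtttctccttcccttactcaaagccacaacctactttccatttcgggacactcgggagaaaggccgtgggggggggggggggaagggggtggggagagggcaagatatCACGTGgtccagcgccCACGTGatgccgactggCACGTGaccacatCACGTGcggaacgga

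A PU box on either strand began 164 bases before the Ctss start, with another at the start itself outside the stretch shown, and 233 and 58 bases before the Ctsk start. Ctsd had an E-box 245 and 98 bases before its start, and Lamp1 had 4, at 61, 45, 28 and 15 bases. Over the whole windows, the E-box was present in 10 of 28 genes, against 8.1% of all genes with a window. It was in 3 of the 11 genes with a window that rose with the transgene (Ctsa, Ctsd and Gla) and in 7 of the 17 that did not pass. The PU box was in 13 of 28, against 31.3% of all genes, and by the same division in 8 of 11 and 5 of 17. TATAAA or TTTATA was in Ctss, Laptm5 and Lipa alone among the 28, against 15.7% of all genes. These are matches of letters in a window, not measured binding. Ctss and Ctsk lie near each other on chromosome 3, with 1 predicted gene between them.

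Among glycosidases and sulfatases, 2 of 6 rose. Gla, the alpha-galactosidase that clears globotriaosylceramide, measured 6.7 on both untreated wild-type arrays and 7.2 and 7.3 in untreated hIAPP, a difference of 0.55 (SE 0.10, adjusted p = 0.0117). A dimmer second probe set for Gla differed by 0.05. Man2b1, an alpha-mannosidase, measured 8.6 and 8.5 against 9.2 and 9.0, also a difference of 0.55 (SE 0.12, adjusted p = 0.0268). With equal array medians the Man2b1 difference was 0.35 and no longer passed (adjusted p = 0.0663). Gusb, the beta-glucuronidase, had a difference of 0.50 that missed the threshold (adjusted p = 0.0588), and Glb1, the beta-galactosidase, one of 0.35 (adjusted p = 0.1153). Hexa, a beta-hexosaminidase subunit, had one of 0.20 and Galns, a sulfatase of keratan sulfate, one of 0.05.

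Lipid-degrading enzymes and their helpers were split. Lipa, the acid lipase that frees cholesterol from its esters, measured 7.1 and 7.2 in untreated wild type, 7.0 and 7.1 in PBA-treated wild type, 8.4 and 7.9 in untreated hIAPP and 7.5 and 7.2 in PBA-treated hIAPP. Its transgene difference was 1.00 (SE 0.18, adjusted p = 0.0135). Gm2a, the activator that presents GM2 ganglioside to hexosaminidase, rose by 0.65 (SE 0.12, adjusted p = 0.0155), from 8.9 and 9.0 to 9.7 and 9.5. The size for both genes depends on the probe set. Other probe sets above background on average differed by 1.55 for Lipa and 0.40 for Gm2a. The acid ceramidase Asah1 (difference -0.05), the tripeptidyl peptidase Tpp1 (0.10), the saposin precursor Psap (0.00, 95% interval -0.35 to 0.35) and the cholesterol carrier Npc2 (0.20) did not pass, and neither did the cholesterol transporter Npc1 (0.40). The sphingomyelinase Smpd1 had a difference of -0.25 and the palmitoyl-thioesterase Ppt1 one of -0.20, neither past the threshold.

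The membrane of the lysosome showed 1 rise among 4 genes. Laptm5, a transmembrane protein of blood-derived cells, measured 6.3 and 6.0 in untreated wild type, 5.5 and 5.5 in PBA-treated wild type, 8.2 and 7.9 in untreated hIAPP and 6.7 and 6.2 in PBA-treated hIAPP. The transgene difference was 1.90 (SE 0.19, adjusted p = 0.0014), and a dimmer second probe set for Laptm5 differed by 1.30. Lamp1 and Lamp2, the abundant glycoproteins that line every lysosome, gave -0.10 (95% interval -0.43 to 0.23) and 0.00 (-0.22 to 0.22). Mcoln1, the lysosomal calcium channel, gave 0.05 (-0.21 to 0.31). The transcription factor Tfeb lay between 4.6 and 4.9 on all arrays, close to background, and its difference was 0.00 (-0.35 to 0.35). Its transcript level says nothing of where the protein sits in the cell, by which Tfeb is mainly controlled.

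The V-ATPase d subunit exists in a general form, Atp6v0d1, and a form of osteoclasts and macrophages, Atp6v0d2. Atp6v0d2 measured 4.1 and 4.5 in untreated wild type, 3.7 and 3.9 in PBA-treated wild type, 6.6 and 5.9 in untreated hIAPP and 4.0 and 4.2 in PBA-treated hIAPP. It was above the background level on the untreated hIAPP arrays and on no other, so its fold is a lower bound: at least 2.97-fold higher in untreated hIAPP when the wild-type arrays are set to the background level of 4.68. The measured difference, part of it within background, was 1.95 (SE 0.24, adjusted p = 0.0031). Atp6v0d1 measured 10.7 on both untreated wild-type arrays, 10.7 and 10.6 in PBA-treated wild type, 10.5 on both untreated hIAPP arrays and 10.8 and 10.7 in PBA-treated hIAPP. Its difference was -0.20 (95% interval -0.43 to 0.03), which passed the threshold as a fall of -0.40 once array medians were set equal (adjusted p = 0.0266). The catalytic subunit Atp6v1a read 9.7 on 1 array and 9.6 on the other in every group, a difference of 0.00 (-0.24 to 0.24), and the regulatory subunit Atp6v1h gave -0.15.

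The shift of array medians bears on these counts. With medians set equal, 14 genes rose and 3 fell in place of 15 and 0, and over all genes 6.3% rose and 19.1% fell. The falls were Smpd1 (-0.45, adjusted p = 0.0187), Atp6v0d1 and Ppt1 (-0.40, adjusted p = 0.0403). The 4 macrophage-rich genes and all the cathepsins named as risen kept their call in that setting.

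**Figure D2:**
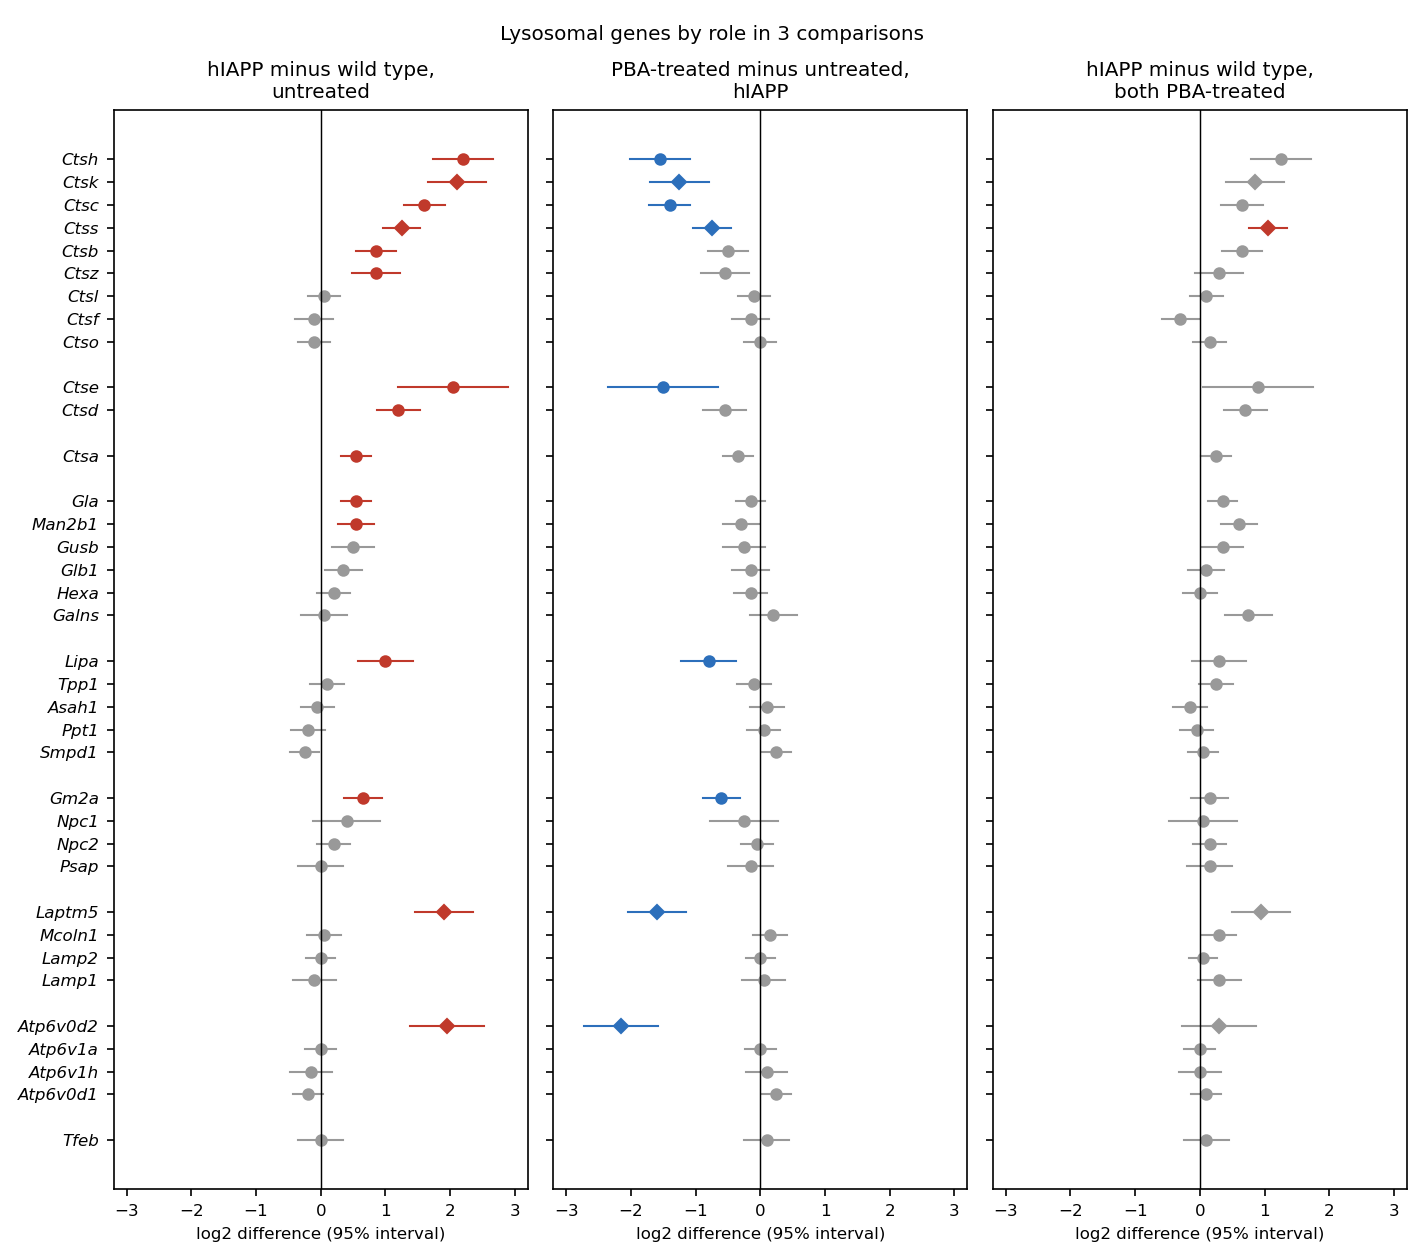
Log2 difference (horizontal axis) of each of the 36 genes in 3 comparisons, one per panel: hIAPP against wild type untreated, PBA against none in hIAPP mice, and hIAPP against wild type under PBA. Lines are 95% intervals of the limma fit, and genes are ordered by role. Diamonds are the macrophage-rich genes and circles the others; red or blue marks genes past the threshold and grey those not past it. The macrophage-rich genes lie between 1.25 and 2.10 for the transgene and between -2.15 and -0.75 for PBA, and many others near 0, where the sign of small differences depends on how arrays are scaled.

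In hIAPP mice, PBA lowered 9 of the 36 genes and raised 0 (limma, adjusted p under 0.05), where 6.32% of all genes fell, 1.78% rose and 8.09% changed. This comparison uses the same untreated hIAPP arrays as the one before, so its values are given side by side and not as separate support. Atp6v0d2, at 4.0 and 4.2 on the PBA-treated hIAPP arrays, was below the background level there, at least 2.97-fold lower than without PBA. Its measured difference, part of it within background, was -2.15 (SE 0.24, adjusted p = 0.0036). Laptm5 fell by 1.60 (SE 0.19, adjusted p = 0.0044) and Ctsk by 1.25 (SE 0.19, adjusted p = 0.0096). The dimmer second probe set for Laptm5 differed by -0.70, so the size of its fall depends on the probe set. Ctss, at 10.4 on both PBA-treated hIAPP arrays, fell by 0.75 (SE 0.12, adjusted p = 0.0119). The median over the 4 macrophage-rich genes was -1.42 (-1.41 with Atp6v0d2 at its bound), against -0.15 over the 32 others and 0.00 over all genes. With equal array medians the value for the 32 others was 0.05. Of the 24 macrophage markers, 18 fell in this comparison, with a median of -1.12. The groups did not overlap for 15 genes that were lower with PBA, against 20.8% of all genes, and for 3 that were higher, against 22.6%.

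The other genes that fell under PBA were Ctsh (-1.55, SE 0.20, adjusted p = 0.0052), Ctsc (-1.40, SE 0.13, adjusted p = 0.0022), Ctse (-1.50, SE 0.36, adjusted p = 0.0489), Lipa (-0.80, SE 0.18, adjusted p = 0.0389) and Gm2a (-0.60, SE 0.12, adjusted p = 0.0269). Other probe sets above background on average differed by -1.25 for Lipa and -0.30 for Gm2a. Ctsc, at 8.2 and 8.1 in PBA-treated hIAPP, lay next to the 8.1 and 7.8 of untreated wild type. Ctsd, Ctsb, Ctsz and Ctsa were lower on both PBA-treated hIAPP arrays than on either untreated one, but missed the threshold. Their differences were -0.55, -0.50, -0.55 and -0.35 (adjusted p = 0.0621, 0.0660, 0.0846 and 0.0729). For Ctsb, the other probe sets differed by -1.20, -1.10 and -0.60, and for Ctsz by -0.80 and -0.45. The sizes for these genes thus depend on the probe set. Gla, at 7.1 on both PBA-treated hIAPP arrays, differed by -0.15 (95% interval -0.38 to 0.08). Lamp2 and Atp6v1a differed by 0.00, Lamp1 by 0.05 and Tfeb by 0.10. With array medians set equal, 7 genes fell and 2 rose, Smpd1 and Atp6v0d1, each by 0.45 (adjusted p = 0.0224), while 15.3% of all genes rose and 5.2% fell.

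These falls rested on few arrays. Without PBA-treated hIAPP 1, the array low in acinar markers, 2 genes passed, Ctsc (-1.45, adjusted p = 0.0385) and Laptm5 (-1.85, adjusted p = 0.0323). Ctsh was then at -1.50 and Atp6v0d2 at -2.05 (adjusted p = 0.0727 and 0.0631), and Ctss stayed at -0.75. Without untreated hIAPP 1, only Atp6v0d2 passed (-1.80, adjusted p = 0.0455), and without PBA-treated hIAPP 2 only Ctsc, Laptm5 and Atp6v0d2. With the acinar median of each array as a covariate 0 passed by limma, and the median of the macrophage-rich genes was -1.64. The acinar median was lowest on both PBA-treated hIAPP arrays, so this covariate overlaps with the group. Lipa and Gm2a passed in 0 of the 8 fits that leave out an array. For the transgene, Ctsc, Ctsh, Ctsk, Ctss, Ctsd, Laptm5 and Atp6v0d2 passed in all 8, and the count over the 36 genes was 7 without untreated wild type 2, 8 without untreated wild type 1 and 8 without untreated hIAPP 1.

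In wild-type mice, PBA changed 0 of the 36 genes by limma's adjusted p, where 0.292% of all genes changed (0.146% in each direction). An unadjusted limma p under 0.05 was found for 8 of the 36, and for 1801 of all 17097 genes. The 3 largest differences were those of Laptm5, Ctsh and Ctss. Laptm5 was at 6.3 and 6.0 without and 5.5 and 5.5 with PBA, a difference of -0.65 (95% interval -1.10 to -0.20, adjusted p = 0.3070). Ctsh had -0.60 (-1.06 to -0.14), and Ctss, at 9.9 and 9.9 against 9.4 and 9.3, had -0.55 (-0.84 to -0.26, adjusted p = 0.1805). Ctsk differed by 0.00 (-0.45 to 0.45). The groups did not overlap for 13 genes that were lower with PBA, against 14.9% of all genes, and for 1 that was higher, against 13.6%. The median difference was -0.53 over the macrophage-rich genes, -0.07 over the 32 others and 0.00 over all genes. Without PBA-treated wild type 1, the array with low hybridisation controls, 0 genes passed and the macrophage-rich median was -0.50. A variance prior with a trend called 1 gene here, Ctss (adjusted p = 0.0022).

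Between the genotypes under PBA, 1 of the 36 genes was higher in hIAPP islets, Ctss, where 0.316% of all genes were higher, 0.0994% lower and 0.415% changed. It measured 10.4 on both PBA-treated hIAPP arrays against 9.4 and 9.3 in PBA-treated wild type, a difference of 1.05 (SE 0.12, adjusted p = 0.0240). That call was lost in each of the 8 fits without 1 array, at differences of 1.00 to 1.10 and adjusted p of 0.0509 to 0.2742. The groups did not overlap for 20 genes that were higher in hIAPP, against 15.6% of all genes, and for 1 that was lower, against 14.8%. Ctsh differed by 1.25 (95% interval 0.79 to 1.71, adjusted p = 0.0670), Laptm5 by 0.95 (0.50 to 1.40, adjusted p = 0.1322), Ctsk by 0.85 (0.40 to 1.30, adjusted p = 0.1608) and Ctsd by 0.70 (0.37 to 1.03, adjusted p = 0.1322). Atp6v0d2, below background on all 4 arrays of this comparison, differed by 0.30. Galns, at 0.05 without PBA, was at 8.4 and 8.3 against 7.5 and 7.7, a difference of 0.75 (adjusted p = 0.1315). The median was 0.90 over the macrophage-rich genes (0.85 without PBA-treated wild type 1, and 0.80 without PBA-treated hIAPP 1), 0.15 over the others and 0.00 over all genes.

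Whether PBA acted differently in the genotypes was tested by the interaction, the PBA difference in hIAPP minus that in wild type. By limma 0 of the 36 genes passed, where 1.96% of all genes did (0.269% above 0 and 1.69% below it). Here 10 of the 36 had an unadjusted limma p under 0.05, as did 2777 of all 17097 genes. The values nearest the threshold were those of Ctsc (-0.95, SE 0.19, adjusted p = 0.0586), Atp6v0d2 (-1.65, SE 0.34, adjusted p = 0.0648) and Ctsk (-1.25, SE 0.27, adjusted p = 0.0716). For Atp6v0d2, 3 of the 4 groups lay below background, so its value mostly restates the level in untreated hIAPP. Ctss, which was lower with PBA in either genotype by value, had an interaction of -0.20 (95% interval -0.60 to 0.20). Leaving out dim genes let Ctsc pass (adjusted p = 0.0425), averaging probe sets let Atp6v0d2 pass at -2.0 (adjusted p = 0.0197), and the probe set with the largest SD let Lipa pass at -1.10 (adjusted p = 0.0297).

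Other lysosomal genes were taken from lists by function. Of 31 other hydrolases, 3 rose with the transgene and 0 fell, a share close to the 7.77% of all genes that rose. Acp5, the tartrate-resistant acid phosphatase of osteoclasts and macrophages, measured 6.0 and 5.7 in untreated wild type, 4.8 and 5.0 in PBA-treated wild type, 9.0 and 8.4 in untreated hIAPP and 7.2 and 7.4 in PBA-treated hIAPP. It rose by 2.85 (SE 0.21, adjusted p = 5.1e-04), fell by 1.40 with PBA in hIAPP mice (adjusted p = 0.0093) and was still higher by 2.40 in hIAPP under PBA (adjusted p = 0.0089). Plbd1, a phospholipase B of myeloid cells, rose by 1.25 and fell by 1.25, and Smpdl3a, a phosphodiesterase, rose by 0.90 and fell by 0.75. The other 28 hydrolases did not pass in either comparison, and the list's median transgene difference was 0.05. All 11 other cathepsins were below the background level on every array.

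Of 40 other genes of the lysosomal membrane, transport and sorting, 5 rose with the transgene and 1 fell, where 7.77% of all genes rose and 3.19% fell. Cd68, the heavily glycosylated lysosomal protein of macrophages, measured 6.0 and 6.2 in untreated wild type, 5.3 and 5.2 in PBA-treated wild type, 8.9 and 8.5 in untreated hIAPP and 7.5 and 7.4 in PBA-treated hIAPP. It rose by 2.60 (SE 0.15, adjusted p = 2.7e-04) and fell by 1.25 with PBA in hIAPP mice (adjusted p = 0.0045). Under PBA it was higher in hIAPP by 2.20 (adjusted p = 0.0022). The metal transporter Slc11a1 rose by 2.15, the peptide transporter Slc15a3 by 1.95 (at least 3.39-fold, with 1 wild-type array below background), Mitf, a relative of Tfeb, by 1.20, and the progranulin gene Grn by 0.60. Slc11a1, Slc15a3 and Mitf fell under PBA in hIAPP mice, by 1.20, 1.55 and 0.80. For Slc15a3 the fall was at least 2.85-fold, with 1 PBA-treated hIAPP array below background. Sort1, which carries enzymes from the Golgi to the lysosome, fell by 0.40 with the transgene (adjusted p = 0.0403).

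Of 17 further V-ATPase genes, 1 rose and 0 fell with the transgene, where 7.77% of all genes rose. Tcirg1, the a3 subunit that osteoclasts and macrophages use, measured 5.4 on both untreated wild-type arrays, 5.1 and 5.2 in PBA-treated wild type, 7.0 and 6.5 in untreated hIAPP and 5.5 and 5.9 in PBA-treated hIAPP. It rose by 1.35 (SE 0.19, adjusted p = 0.0049) and fell by 1.05 with PBA in hIAPP mice (adjusted p = 0.0181). Atp6v0a1, the a1 subunit of neurons and endocrine cells, had a difference of -0.50 that missed the threshold (adjusted p = 0.0515), as did Atp6v1b2 at -0.35 (adjusted p = 0.0617).

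**Figure D3:**
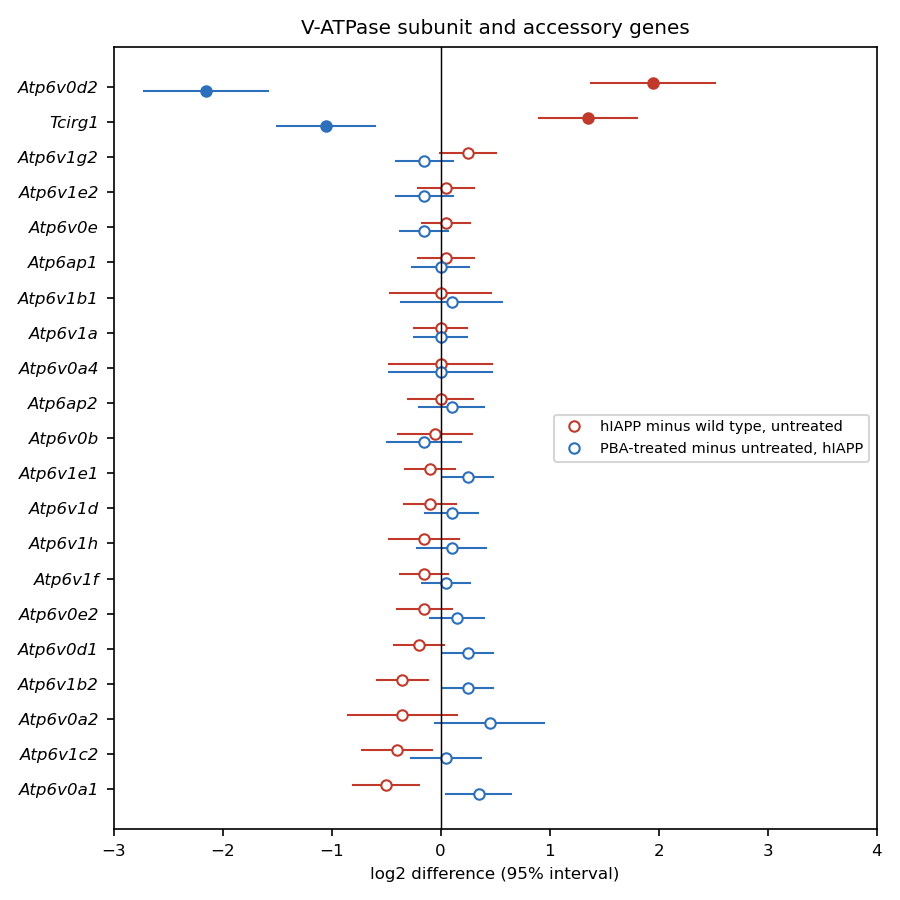
Log2 differences (horizontal axis, with 95% intervals) of 21 V-ATPase subunit and accessory genes for the transgene without PBA (red) and for PBA in hIAPP mice (blue). Filled points passed the threshold and open points did not. Atp6v0d2 and Tcirg1 stand apart at 1.95 and 1.35 for the transgene and at -2.15 and -1.05 for PBA. The others lie between -0.50 and 0.45. Setting array medians equal lowers each transgene value by 0.20 and raises each PBA value by 0.20, so only values within 0.20 of 0 can change sign.

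Of 12 cystatins and other inhibitors of cathepsins, 1 rose with the transgene, a share close to the 7.77% of all genes. Serpinb6b, an intracellular serpin, measured 4.1 and 4.4 in untreated wild type, 3.7 and 3.9 in PBA-treated wild type, 5.3 and 5.4 in untreated hIAPP and 3.9 on both PBA-treated hIAPP arrays, above background in the untreated hIAPP group alone. It rose by at least 1.59-fold and fell with PBA in hIAPP mice by at least 1.59-fold when the dim arrays are set to background; the measured differences were 1.10 (SE 0.13, adjusted p = 0.0028) and -1.45 (adjusted p = 0.0020). Serpinb1a, another serpin, had a transgene difference of 0.85 that did not pass (adjusted p = 0.1703) and fell with PBA in hIAPP mice, by at least 1.89-fold against background and with a measured difference of -1.45 (adjusted p = 0.0444). The median transgene difference of the list was 0.15.

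Markers of other cells moved with these genes. The median of 24 macrophage markers was 6.10 and 6.30 in untreated wild type, 5.80 and 5.65 in PBA-treated wild type, 8.30 and 7.95 in untreated hIAPP and 7.0 and 6.70 in PBA-treated hIAPP. Beside the 20 of 24 that rose with the transgene and the 18 that fell with PBA in hIAPP mice, 0 passed by limma for PBA in wild type (median -0.58) and 9 were higher in hIAPP under PBA (median 1.10). The macrophage-rich genes, for comparison, had array medians of 6.05 and 5.90, 5.60 and 5.70, 8.20 and 7.75, and 6.65 and 6.45 in the same order of groups. The order of groups in these medians was that of the macrophage markers. By group mean, Ctss and Laptm5 followed it, while Ctsk was 5.80 in both wild-type groups. Atp6v0d2 was higher in untreated wild type (4.30) than in PBA-treated hIAPP (4.10), both below background. The part of macrophage content in the change of these genes was not tested. Of the 24 markers, 0 were below the background level on all arrays, but several were on single arrays. The number below was 3 and 4 in untreated wild type and 7 and 6 in PBA-treated wild type. It was 0 and 2 in untreated hIAPP and 4 and 3 in PBA-treated hIAPP, so the sizes of those markers' differences are uncertain.

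The level of each gene minus the macrophage-marker median was followed from array to array; such offsets hold within a gene and cannot be compared between genes. Laptm5 lay between -0.50 and 0.20 of it on all 8 arrays, and Ctsk between -0.50 and 0.25. Ctss was 3.80 and 3.60 above it in untreated wild type and 3.0 and 3.05 above it in untreated hIAPP. Atp6v0d2 was -1.70 and -2.05 from it in untreated hIAPP, but -3.0 and -2.50 in PBA-treated hIAPP, where it sat in background. These offsets describe each array and were given no test.

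Other cell types moved as well. The 15 fibroblast and stellate markers had array medians of 5.90 on both untreated wild-type arrays, 6.20 and 5.80 in PBA-treated wild type, 8.80 and 8.90 in untreated hIAPP and 7.10 on both PBA-treated hIAPP arrays; 12 rose with the transgene and 11 fell with PBA in hIAPP mice. Of 11 endothelial markers, 7 rose and 8 fell in the same comparisons. Of 13 beta-cell markers, 2 fell with the transgene and 2 rose with PBA in hIAPP mice. Of 7 markers of osteoclasts and fused macrophages, 2 rose with the transgene, Acp5 and Nfatc1 (by 0.95), and 5 were below background on all arrays. Of 6 duct markers, 1 rose and 1 fell in the same comparisons. The array medians of 6 B-cell and 6 T-cell markers ran from 3.40 to 5.25, around the background level, but single markers were brighter. The B-cell marker Ms4a1 read 7.9 and 4.7 in untreated wild type, 3.4 and 4.3 in PBA-treated wild type, 7.8 and 8.7 in untreated hIAPP and 6.9 and 4.7 in PBA-treated hIAPP. No B-cell marker passed in either comparison, and 1 T-cell marker, Cd3d, rose with the transgene and fell with PBA in hIAPP mice. Cd3d reached the background level on the 2 untreated hIAPP arrays alone (5.2 and 4.7), so the sizes of its changes are uncertain. The 12 acinar markers were at 12.70 and 11.35 in untreated wild type, 12.40 and 11.50 in PBA-treated wild type, 11.85 and 12.70 in untreated hIAPP and 9.25 and 10.90 in PBA-treated hIAPP. All 12 were lower on both PBA-treated hIAPP arrays than on either untreated hIAPP array, with a median difference of -2.20. Of these 2 passed, and 0 passed for the transgene. The part of these cells in the changes of lysosomal genes was not tested.

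**Figure D4:**
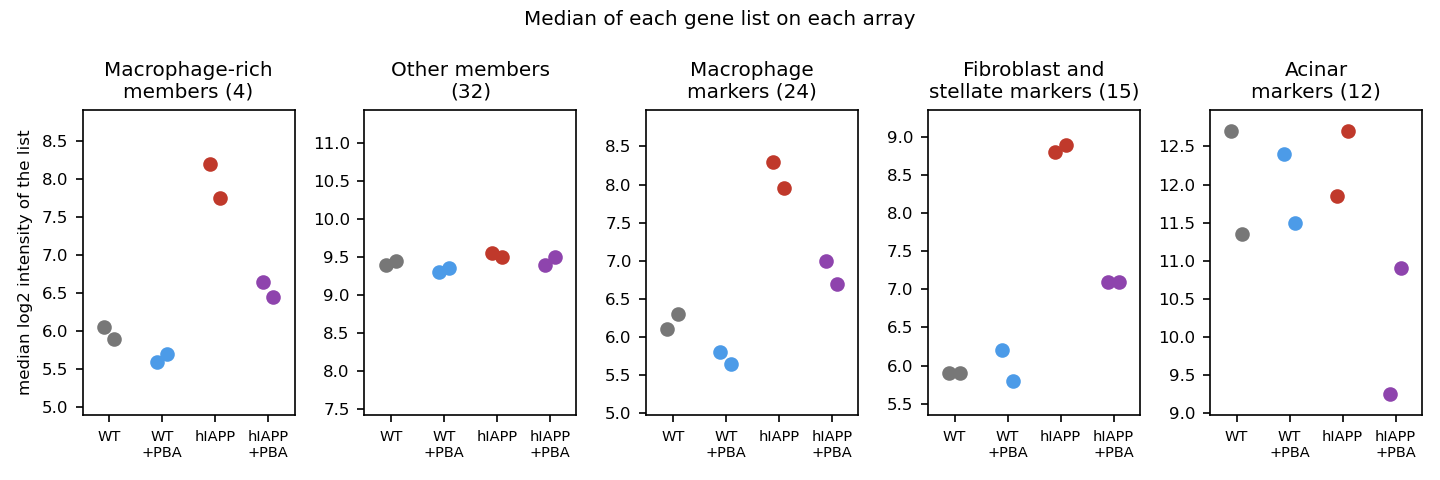
Median log2 level (vertical axis) of gene lists on each array, by group (horizontal axis): the macrophage-rich and other lysosomal genes, and markers of macrophages, of fibroblasts and stellate cells and of acinar cells. Points are arrays, and every panel spans the same number of log2 units. The macrophage-rich genes reach 8.20 and 7.75 in untreated hIAPP, with macrophage markers at 8.30 and 7.95, while the other lysosomal genes stay between 9.30 and 9.55.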

How the data were processed

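Islet RNA was measured on 8 Affymetrix arrays, 2 per group. The authors deposited 1 log2 value per probe set and array, made with RMA (background subtraction, quantile normalisation and probe summary) in the affy package, without a version, per the submitters' processing notes. The values are rounded to 1 decimal, which with 2 arrays per group limits the precision, and were used as deposited. Of 45141 probe sets, 104 controls were left out and 28898 name 1 gene; the brightest set on average stood for each gene, giving 17097 genes. Of the probe sets, 551 name several genes and 15588 name none, and these were not used.

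A single limma 3.58.1 fit (R 4.3.3) of all 8 arrays gave 4 group means with 4 residual and 3.27 prior degrees of freedom. Tests were two-sided, with Benjamini-Hochberg adjustment over the 17097 genes and a threshold of 0.05. The script was tested on simulated data. Promoters and symbols came from RefSeq (GRCm38.p6), and tables and plots from pandas 2.3.3 and matplotlib 3.10.9 in Python 3.11.15. All 36 measured genes could be named, with arrays given for the largest changes and both d subunits. Of each other functional list, only the 6 genes with the smallest unadjusted p for the transgene could be named. The genes and lists were chosen with earlier results of these data known. Alternatives changed the probe set, the filter on dim genes, the array scaling, the variance prior, array weights, a replicate block, an acinar covariate and the arrays included.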

Additional observations from a re-analysis of the deposited data

Results flagged for a closer look

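The interaction for Serpinb6b, a serpin, passed the threshold: the change with PBA in hIAPP minus that in wild type was -1.0 on the log2 scale (limma, SE 0.19, adjusted p = 0.050 after rounding, below the threshold before it). The gene was below the background level on all arrays of the other 3 groups and above it only in untreated hIAPP, so the value mostly restates that group's level and does not show a different response to PBA.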

How the results depend on the processing

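No gene past the threshold changed sign under the alternatives tried, but the counts moved. For the transgene without PBA the 15 genes past the threshold became 1, Ctsh (adjusted p = 0.0445), when limma used only those 4 arrays, and the same 1 when the first array of each PBA-treated genotype was left out, both having stood apart, since the spread then comes from the same 4 arrays. Leaving out 1 array gave 7 to 15. For PBA in hIAPP mice the 9 became 0 with only those 4 arrays, 0 with the acinar covariate, 0 without both of these first arrays and 14 with a trended robust prior, and 1 to 7 without 1 array. For PBA in wild type the 0 became 1 with the trended prior. For the transgene under PBA the 1 became 0 with only those 4 arrays, with the replicate block, with the acinar covariate and without both arrays, 2 without dim genes, 4 with the mean of a gene's probe sets, 2 with the probe set of largest SD, 2 with quantile normalisation repeated and 9 with the trended prior, and 0 to 0 without 1 array. The interaction's 0 became 1 without dim genes, 1 with the mean of probe sets, 1 with the probe set of largest SD and 8 with the trended prior. It was not fitted on 4 arrays. The macrophage-rich median for the transgene was 1.68 to 2.18 without 1 array. With array medians set equal, the median of the other 32 genes moved from 0.15 to -0.05 for the transgene, from -0.15 to 0.05 for PBA in hIAPP mice and from -0.08 to 0.13 for the interaction. The deviations of same-numbered arrays had correlations of -0.14 to 0.10 over all genes. With 2 arrays per group these cannot decide whether the numbers pair the arrays, which the labels do not say. The replicate block called 15 genes for the transgene, 7 for PBA in hIAPP mice, 0 for PBA in wild type, 0 under PBA and 0 for the interaction. Rounding and the number of arrays limit small differences, and Ctso, Atp6v0d2, Ctse and Tfeb lie in or near background.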
